A study of Homo sapiens with 2 samples.

Results

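Aminoacyl-tRNA synthetases join each amino acid to its tRNA, and their genes were described here in hepatoma cells exposed to a glycosylated serum protein. The genes were chosen by symbol: 20 cytosolic synthetase genes, 16 mitochondrial synthetase genes and 3 genes for the scaffold proteins of the multisynthetase complex. All 39 were among the 16424 genes listed. The comparison addressed was between the cytosolic and the mitochondrial compartment.

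Cap analysis of gene expression (CAGE), in which the capped 5′ ends of RNAs are sequenced as short tags, was applied to PLC/PRF/5, an established human hepatoma cell line. M2BPGi is a glycosylated form of Mac-2 binding protein that serves as a serum marker of liver fibrosis. One condition was non-treated cells (0 µg/ml) and the other was cells given 3 µg/ml M2BPGi for 6 h, with 1 library in each condition. The comparison of the conditions thus has no replicate check.

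A synthetase recognises its amino acid and the tRNAs that carry it, and the charged tRNA then enters the ribosome. Cytosolic and mitochondrial protein synthesis use separate sets of synthetases, encoded in the nucleus and mostly by separate genes, and the mitochondrial enzymes are imported after their synthesis. When charged tRNA is short, the kinase GCN2 senses the uncharged tRNA and translation of the transcription factor ATF4 increases, and many cytosolic synthetase genes are among the genes that ATF4 is known to activate. In the liver, which makes most plasma proteins, demand for charged tRNA is high.

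Library totals were inferred from the steps between the rounded CPM values, which gave 24040209 tags in non-treated and 24862941 tags in M2BPGi-treated cells. Summed over the listed genes, tags came to 22630317 and 23471991, in which a tag shared by overlapping genes may count more than once. Values were tags scaled to library size (CPM), and since CAGE gives 1 tag for each capped 5′ end, CPM did not scale with transcript length and levels could be set side by side between genes. Change was expressed as a log2 ratio, M2BPGi-treated over non-treated, with 1 CPM added to each value. A gene was said to have risen or fallen when this log2 ratio was at least 0.32 from 0, which is 25% higher or 20% lower. The 95% Clopper-Pearson intervals are those of the tag ratio without a pseudocount and cover counting error only. The background was the 13724 genes with a mean of at least 1 CPM, a level that all 39 genes passed. Its median log2 ratio was -0.05, and its central 95% ran from -0.67 to 0.52. In bulk RNA, fewer cells of a type and less RNA per cell cannot be told apart.

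The compartments differed widely in level. The median of the mean CPM was 125 for the cytosolic genes and 18.2 for the mitochondrial genes. Among the cytosolic genes, GARS, for glycyl-tRNA synthetase, was the most abundant, with 404 CPM without and 540.2 CPM with M2BPGi. NARS, the asparaginyl enzyme, came next with 394 and 418 CPM. The least abundant cytosolic gene was FARSB, which encodes the beta subunit of phenylalanyl-tRNA synthetase, with 51.1 and 54.0 CPM. Its partner FARSA, for the alpha subunit, was in the same range with 65.3 and 77.5 CPM. The mitochondrial genes ran from FARS2, the phenylalanyl enzyme of mitochondria, with 3.54 and 4.83 CPM, to IARS2, the isoleucyl enzyme, with 171 and 145 CPM. IARS2 was thus a mitochondrial gene above the cytosolic median.

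**Figure D1:**
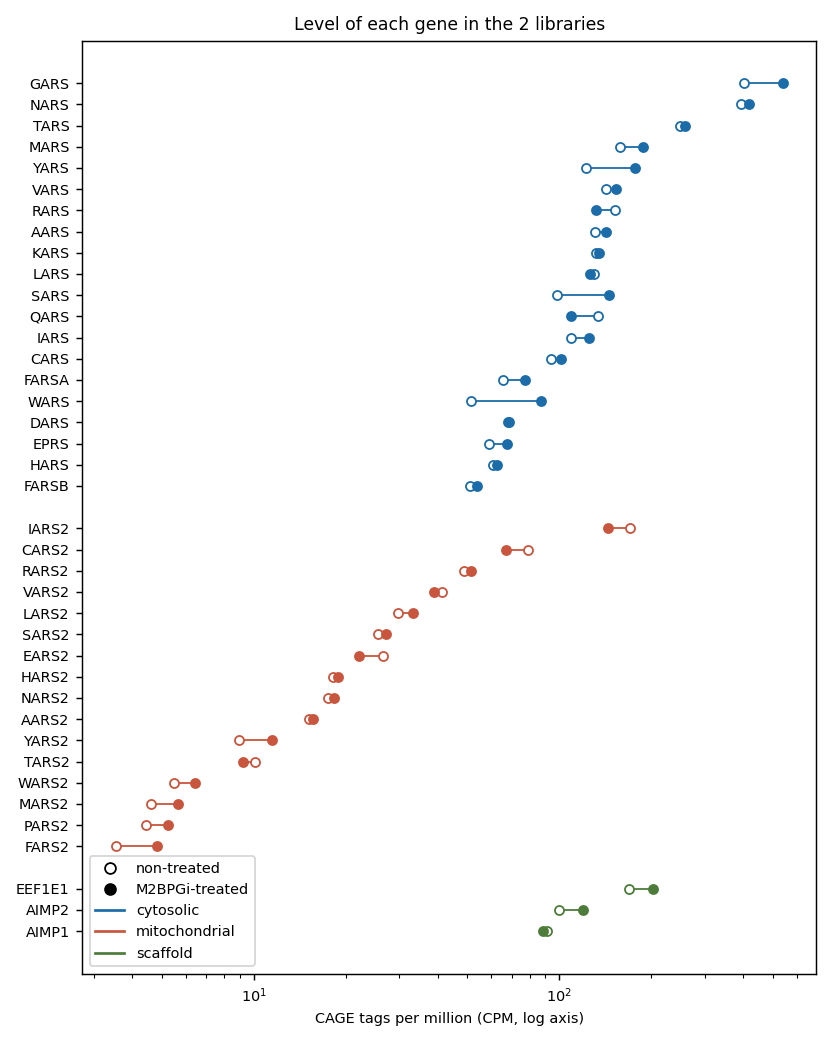
Level of each of the 39 genes in CPM on a log axis, with open circles for non-treated and filled circles for M2BPGi-treated cells, 1 library each. Cytosolic genes (blue) lie at 51.1 CPM or more in both libraries, most mitochondrial genes (red) lie lower, and the scaffold genes (green) lie among the cytosolic ones.

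Of the 20 cytosolic genes, 4 rose and 0 fell. Among all tested genes, 9.04% rose and 18.4% fell, so the cytosolic share of 20.0% higher was above the background share and its share lower was below it. WARS, SARS, YARS and GARS were the genes that rose. WARS (ENSG00000140105) encodes tryptophanyl-tRNA synthetase, an enzyme also known for its induction by interferon gamma. Its level was 51.3 CPM (1233 tags) without and 87.2 CPM (2169 tags) with M2BPGi. The log2 ratio was 0.75, with a tag-ratio interval of 0.66 to 0.87, and 0.561% of all tested genes had one as high. SARS (ENSG00000031698), for the seryl enzyme, which also charges the selenocysteine tRNA, had 98.5 and 145 CPM. Its log2 ratio was 0.55 (interval 0.48 to 0.63). YARS (ENSG00000134684), for the tyrosyl enzyme, had 122 and 177 CPM (log2 ratio 0.53, interval 0.47 to 0.60). GARS (ENSG00000106105), whose transcript gives both the cytosolic and the mitochondrial glycyl enzyme, had a log2 ratio of 0.42 (interval 0.38 to 0.46) from 9702 and 13431 tags. The lower bounds of all 4 intervals lay above 0.32, so within counting error all 4 tag ratios remained past the threshold. At 1.5-fold, WARS was the gene of the 39 that remained higher and 0 were lower, against 1.6% higher and 4.04% lower among all tested genes.

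Below these 4 genes the cytosolic ratios formed a graded series. The counting interval lay above 0 for 13 of the 20 genes and below 0 for 2, where 22.8% and 31.5% of all tested genes had such intervals. Of the 13, TARS lay above 0 only barely, with an interval from 0.0006. Since intervals narrow with tag number, the 3227 genes in the cytosolic range of mean CPM were read as well, and 44.1% and 34.0% of these had intervals above and below 0. MARS, for the methionyl enzyme that also charges the initiator tRNA, came after the genes that rose, with 158 and 188 CPM and a log2 ratio of 0.25 (interval 0.19 to 0.31). At the other end was QARS, for glutaminyl-tRNA synthetase, with 134 and 109 CPM. Its log2 ratio of -0.29 (interval -0.37 to -0.22) did not reach the threshold. RARS, for the arginyl enzyme, had 153 and 132 CPM and a log2 ratio of -0.21 (interval -0.28 to -0.14). QARS and RARS were the cytosolic genes with an interval below 0. LARS, for the leucyl enzyme that also senses leucine for mTORC1, had 130.45 and 126 CPM, and DARS, for the aspartyl enzyme, had 68.6 and 68.0 CPM. Both of their intervals held 0, and their log2 ratios of -0.05 and -0.01 became 0.00 and 0.04 when the libraries were rescaled to an all-gene median of 0. The 12 cytosolic genes between these ends ran from KARS with a log2 ratio of 0.03 to MARS, all above 0. KARS, for the lysyl enzyme, which like GARS serves both compartments from a single gene, had 132 and 135 CPM.

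As a group, the cytosolic genes had a median log2 ratio of 0.11 (quartiles 0.04 and 0.25), and 16 of 20 ratios were above 0, against 5881 of 13724 in all tested genes. In genes of the same range of mean CPM (3227 genes), the median was 0.04, with 10.7% higher and 12.3% lower. Relative to genes in the same bin of transcript length, the cytosolic median was 0.18. The summed level of the 20 genes was 2807 CPM without and 3169 CPM with M2BPGi. The 4 genes that rose made up 676 and 949 CPM of this, and the other 16 made up 2132 and 2219 CPM. Since the 4 were picked by their rise, this split follows largely from the choice, and GARS alone accounted for 404 and 540.2 CPM.

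**Figure D2:**
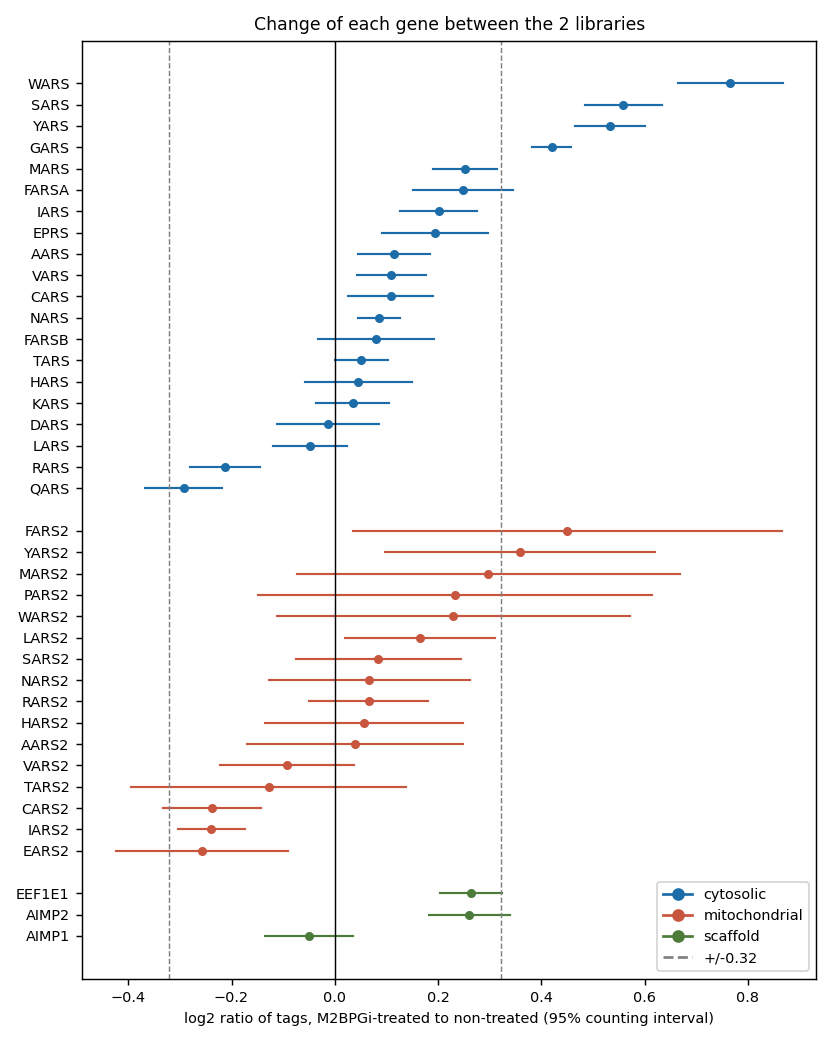
Log2 ratio of tags for each gene, M2BPGi-treated over non-treated, without a pseudocount, with its 95% counting interval, for 1 library each. The solid line marks 0 and the dashed lines mark 0.32 in either direction. WARS, SARS, YARS and GARS have whole intervals to the right of the upper dashed line, and the widest intervals belong to the mitochondrial genes with few tags.

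A list of 12 cytosolic genes commonly given as ATF4 targets was set beside the other 8. This list was not independent of earlier results of these data. Of the 12, 4 rose (33.3%, against 9.04% of all tested genes) and 11 had an interval above 0 (91.7%, against 22.8% of all tested genes and 44.1% of those in the cytosolic range of CPM), with a median log2 ratio of 0.20. Of the 8 others, 0 rose and 2 had an interval above 0, with a median of 0.04. LARS was the listed gene whose interval held 0, and that of TARS lay only barely above it. The summed level of the 12 was 2001 and 2377 CPM, and that of the 8 was 807 and 792 CPM.

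Because ATF4 binds DNA with C/EBP partners at an element of known sequence, the promoters of these genes were searched for it, a search chosen after the values were seen. RefSeq promoter windows of the build GRCh38.p14, 250 bases before to 50 bases after the start, were found for 33 of the 39 genes. AARS2, DARS, LARS, VARS, VARS2 and YARS were not matched. The element was searched on both strands as TGATGNAA and, within it, as TGATGCAA. Of all 35116 RefSeq windows, which were not limited to the tested genes, 3.62% held TGATGNAA and 0.866% held TGATGCAA. In the cytosolic set 6 of 16 windows held the fully specified TGATGCAA, and these 6 were also all the cytosolic windows with TGATGNAA. All 6 belonged to the 10 matched genes of the ATF4 list, and 0 of the 6 other cytosolic windows held either form. A list of known ATF4 targets may itself rest partly on this element, so this split is not independent support for the list. In the mitochondrial set 0 of 14 windows held TGATGCAA and 1 of 14, that of YARS2, held TGATGNAA, while the scaffold set had 0 of 3. The 6 matches are shown so that this element can be read with the bases beside it. Each line runs 5′ to 3′ on the strand of its gene, and capitals mark TGATGCAA or its reverse complement TTGCATCA.
AARS: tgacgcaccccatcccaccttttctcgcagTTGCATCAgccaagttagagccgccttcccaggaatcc
CARS: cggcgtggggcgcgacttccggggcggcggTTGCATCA
IARS: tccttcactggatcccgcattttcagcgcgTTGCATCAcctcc
MARS: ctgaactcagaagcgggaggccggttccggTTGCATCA
NARS: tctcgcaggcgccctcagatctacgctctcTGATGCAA
TARS: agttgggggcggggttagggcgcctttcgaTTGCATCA

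The windows shown lie at chr16:70289656-70289723 on the minus strand for AARS, chr11:3057418-3057455 on the minus strand for CARS and chr9:92293698-92293740 on the minus strand for IARS. Those of MARS, NARS and TARS lie at chr12:57488034-57488071 on the plus strand, chr18:57621815-57621852 on the minus strand and chr5:33440937-33440974 on the plus strand. The match began 187 bases before the annotated start in AARS and 13 bases before it in IARS. In MARS and CARS it began 4 and 2 bases before the start, and in TARS and NARS 2 and 14 bases after it. TARS, for the threonyl enzyme, had 249 and 258.5 CPM (log2 ratio 0.05), and NARS had a log2 ratio of 0.09. CARS, for the cysteinyl enzyme, and AARS, for the alanyl enzyme, each had a log2 ratio of 0.11. IARS, for the isoleucyl enzyme, had 0.20. None of the 6 genes with a match rose, where 9.04% of all tested genes rose, so this count does not set them apart. Their counting intervals all lay above 0, though that of TARS (0.0006 to 0.1026) only barely. Among genes of the cytosolic range of CPM, 44.1% had intervals above 0. The windows of WARS, SARS and GARS, which rose, did not hold these letters, and only 0.866% of all windows held TGATGCAA. The 60 bases before the start of these 3 genes are shown for contrast, in lower case since no match was found. They lie at chr14:100376328-100376387 on the minus strand for WARS, chr1:109213833-109213892 on the plus strand for SARS and chr7:30594675-30594734 on the plus strand for GARS.
WARS: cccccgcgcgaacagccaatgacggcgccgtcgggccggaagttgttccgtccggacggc
SARS: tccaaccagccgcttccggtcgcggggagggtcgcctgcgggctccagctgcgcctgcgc
GARS: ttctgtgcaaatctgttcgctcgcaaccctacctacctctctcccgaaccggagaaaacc

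A match is a description of the letters and does not show binding, and no match says only that these letters are not in the window. The E-box CACGTG, a palindrome searched in the same windows, was in 7.26% of all windows. Among the members it was in 3 of 14 mitochondrial windows, those of CARS2, EARS2 and MARS2, and in 1 of 16 cytosolic windows, that of IARS.

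Cytosolic synthetases divide into those bound in the multisynthetase complex and those that act outside it. The 8 complex members EPRS, IARS, LARS, MARS, QARS, RARS, KARS and DARS had a median log2 ratio of 0.01, and 0 rose or fell, where 9.04% of all tested genes rose and 18.4% fell. The 12 outside the complex had a median of 0.11, and all 12 ratios were above 0, as were 5881 of the 13724 tested genes. All 4 genes that rose were outside the complex. Intervals lay above 0 for 3 of the 8 complex genes (37.5%) and for 10 of the 12 others (83.3%), where the share was 22.8% in all tested genes and 44.1% in those of the cytosolic range of CPM. They lay below 0 for 2 of the 8 and 0 of the 12, where the shares were 31.5% and 34.0%. In summed level, the complex genes had 944 and 951 CPM, and those outside it had 1864 and 2217 CPM. The ATF4 list and the complex shared 4 genes, out of 12 and 8 respectively, so the groupings were not separate. EPRS, which charges both glutamate and proline, had 58.9 CPM without and 67.45 CPM with M2BPGi.

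The scaffold proteins hold that complex together and have no synthetase activity. AIMP2, known also as p38, on which the complex assembles, had 99.7 and 119 CPM and a log2 ratio of 0.26 (interval 0.18 to 0.34). EEF1E1, which encodes AIMP3, had 169 and 203 CPM (log2 ratio 0.26, interval 0.20 to 0.32). AIMP1, known as p43 and the precursor of the cytokine EMAP II, had 91.5 and 88.4 CPM (log2 ratio -0.05, interval -0.14 to 0.04), and its log2 ratio became 0.00 when the libraries were rescaled. Of the 3, 0 rose or fell, which with 9.04% higher and 18.4% lower among all tested genes does not set so small a group apart. EEF1E1 overlaps EEF1E1-MUTED, a listed readthrough gene with 167 and 201 CPM, and the tags of this pair may be shared. Its value is therefore uncertain as that of a single gene.

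Among the 16 mitochondrial genes, 2 rose and 0 fell. The share of 12.5% higher was near the 9.04% of all tested genes. FARS2 (ENSG00000145982), the gene with the fewest tags of the 39, had 85 tags without and 120 tags with M2BPGi. Its log2 ratio was 0.36 and its interval of 0.04 to 0.87 reached far below 0.32. YARS2 (ENSG00000139131), for the tyrosyl enzyme of mitochondria, had 8.94 CPM (215 tags) and 11.5 CPM (285 tags), a log2 ratio of 0.33 (interval 0.10 to 0.62). At such low levels, the rise of FARS2 and YARS2 was less securely measured than that of the 4 cytosolic genes. With a pseudocount of 5 CPM, 0 mitochondrial genes rose.

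MARS2, the methionyl enzyme, had 4.62 and 5.67 CPM, and WARS2, the tryptophanyl enzyme, had 5.49 and 6.44 CPM. Their log2 ratios of 0.25 and 0.20 had intervals of -0.07 to 0.67 and -0.11 to 0.57, so no difference was detectable at this depth. At the lower end were 3 genes with enough tags for intervals below 0. EARS2, for the glutamyl enzyme, which also provides the precursor of glutaminyl-tRNA in mitochondria, had 26.5 and 22.2 CPM (log2 ratio -0.25, interval -0.42 to -0.09). IARS2 had a log2 ratio of -0.24 (interval -0.30 to -0.17). CARS2, for the cysteinyl enzyme, had 79.2 and 67.1 CPM (log2 ratio -0.23, interval -0.33 to -0.14). TARS2, for the threonyl enzyme, came after these with 10.1 and 9.25 CPM, and its interval of -0.39 to 0.14 held 0. The other 8 mitochondrial genes ran from VARS2 with a log2 ratio of -0.09 to PARS2, the prolyl enzyme, with 0.19. Of these 8, LARS2, for the leucyl enzyme, was the one whose interval of 0.02 to 0.31 did not hold 0. None of the genes with a ratio below 0 reached the threshold.

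The mitochondrial median log2 ratio was 0.06 (quartiles -0.10 and 0.19), with 11 of 16 ratios above 0, against the same 5881 of 13724. In genes of the same range of mean CPM (10381 genes), the median was -0.06, with 7.70% higher and 17.6% lower. Intervals lay above 0 for 3 genes, below 0 for 3 and held 0 for 10, where 21.7% and 33.8% of genes in this CPM range had intervals above and below 0. Most mitochondrial differences were thus within counting error. The summed level of the 16 genes was 510.0 CPM without and 480.1 CPM with M2BPGi. Without IARS2 the sums were 339 and 336 CPM, so that the difference in the sum lay mainly in this gene. When the libraries were rescaled to an all-gene median of 0, the mitochondrial median was 0.12.

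Between the compartments, the medians differed by 0.04, cytosolic minus mitochondrial. Relative to genes of like transcript length the difference was 0.10. Both values are small beside the spread of the genes within either compartment. At the upper end, the 4 highest log2 ratios with 1 CPM added were all cytosolic. At the lower end the compartments were close, with -0.29 in QARS and -0.25 in EARS2. Without a pseudocount, the tag ratio of FARS2 was 0.45 and above the 0.42 of GARS, with a far wider interval. By structural class, the medians were 0.11 for the 9 class I and 0.08 for the 10 class II cytosolic genes. In mitochondria the medians were 0.06 for both the 9 class I and the 7 class II genes.

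Cytosolic and mitochondrial genes for the same amino acid gave 17 pairs over 16 amino acids. With 1 CPM added, the cytosolic log2 ratio was the higher one in 11 pairs and the lower one in 6. The methionine pair depended on the pseudocount. With it MARS had 0.2506 and MARS2 0.2471, and without it they had 0.2521 and 0.2966. Counting intervals were apart in 7 pairs, with the cytosolic gene above in 6 and the mitochondrial gene above in 1. Those with the cytosolic gene above were tryptophan, serine, glutamate, isoleucine, cysteine and valine. No share over other pairs of genes was taken, so these counts stand without a background. Intervals off 0 were common, with 44.1% above and 34.0% below among genes of the cytosolic range of CPM. For tryptophan the log2 ratios were 0.75 in WARS and 0.20 in WARS2, and for serine 0.55 in SARS and 0.08 in SARS2. The isoleucine pair had intervals on opposite sides of 0, with 109 and 126 CPM in IARS and 171 and 145 CPM in IARS2. Glutamate (EPRS 0.19, EARS2 -0.25) and cysteine (CARS 0.11, CARS2 -0.23) showed the same opposition, each with intervals on opposite sides of 0. For valine, VARS had a log2 ratio of 0.11 (interval 0.04 to 0.18) and VARS2 of -0.09 (interval -0.22 to 0.04), which were barely apart. Arginine was the pair with the mitochondrial gene above, with a log2 ratio of -0.21 in RARS and 0.06 in RARS2. In the tyrosine pair both genes rose, YARS with 0.53 and YARS2 with 0.33, and their intervals overlapped.

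**Figure D3:**
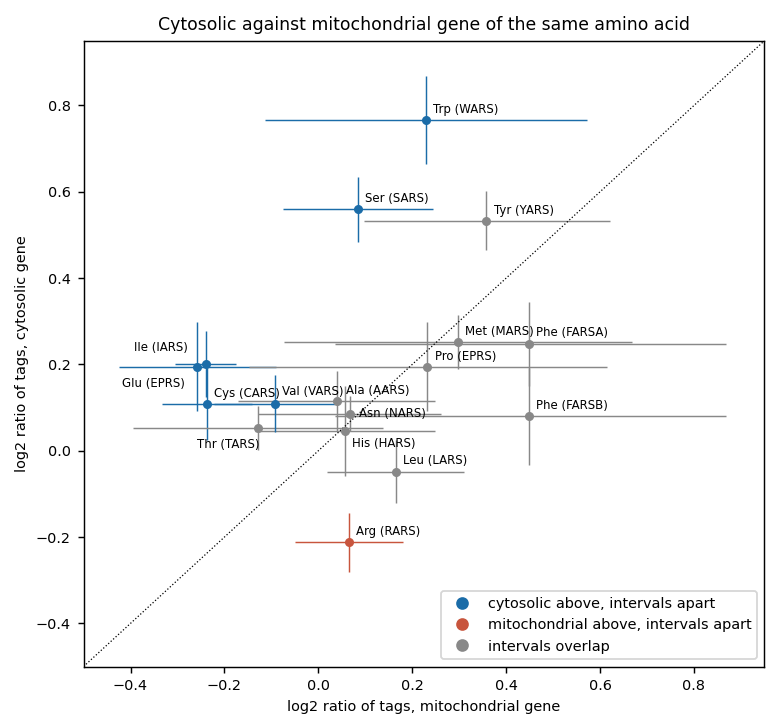
Log2 ratio of tags, M2BPGi-treated to non-treated, of the mitochondrial gene (horizontal axis) and the cytosolic gene (vertical axis) for each amino acid, with 95% counting intervals as bars, for 1 library each. Points above the dotted line of equality have the higher ratio in the cytosolic gene. Blue marks 6 pairs with the cytosolic interval above, red marks arginine with the mitochondrial interval above, and grey marks 10 pairs whose intervals overlap.

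In level, the cytosolic gene was above the mitochondrial gene in 16 of the 17 pairs. The ratio of their mean CPM had a median of 8.84 and was highest for methionine at 33.6, where MARS2 was among the least abundant genes. Isoleucine was the exception, with a ratio of 0.745.

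Positions of the genes in GENCODE v29 were looked at after the values were seen. HARS and HARS2, the cytosolic and mitochondrial histidyl enzymes, are transcribed in opposite directions from starts 436 nt apart. They had 60.5 and 62.5 CPM (HARS) and 18.1 and 18.9 CPM (HARS2), with log2 ratios of 0.04 and 0.05. Other members also share a start region with a gene on the opposite strand. Next to SARS2, MRPS12, for a mitochondrial ribosomal protein, had 277 and 323 CPM, while SARS2 had 25.5 and 27.0 CPM. The noncoding gene AC005154.6, divergent from GARS, fell from 16.9 to 13.3 CPM, a log2 ratio of -0.33. WDR25, divergent from WARS, had 1.66 and 1.29 CPM. The neighbours of the 2 genes thus did not share their rise, though WDR25 was at a low level. Some neighbours rose beside members that did not. Among them were ZMAT2, which overlaps HARS2 (69.5 and 96.6 CPM, log2 ratio 0.47), and GTF2H4 (8.11 and 11.0 CPM, log2 ratio 0.40). VARS2 overlaps GTF2H4 on the same strand, and SARS2 shares 492 nt at 100% identity with the overlapping gene AC011455.2. The first bases of LARS2, EARS2 and EEF1E1 have short near-identical matches elsewhere. Part of the tags of these 5 genes may thus belong to other genes.

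Genes that act around tRNA charging were taken from lists. The list for sensing of uncharged tRNA held 11 genes, among them ATF4 and targets of it. Its median log2 ratio was 0.33, with 6 that rose (54.5%) and 0 that fell, against 9.04% and 18.4% of all tested genes. TRIB3, a pseudokinase induced by ATF4, had 22.6 and 44.0 CPM (log2 ratio 0.93, interval 0.81 to 1.11). CHAC1, which degrades glutathione and is another ATF4 target, had 44.2 and 70.4 CPM. ATF4 itself had 243 and 310 CPM (log2 ratio 0.35), and ASNS, DDIT3 and EIF2S1 also rose. The intervals of ATF4 (0.30 to 0.40), DDIT3 (0.28 to 0.44) and EIF2S1 (0.25 to 0.41) reached below 0.32. Lowest was GCN1L1, the partner of GCN2, with 38.1 and 31.2 CPM, and EIF2AK4, which encodes GCN2, had a log2 ratio of -0.02. The genes of the sensor itself thus did not rise. PPP1R15A, a phosphatase subunit and stress-response target, went from 18.6 to 15.3 CPM (interval -0.49 to -0.09), and SESN2, another such target, had 15.1 and 16.3 CPM with an interval that held 0. This list was made to hold known ATF4 targets, and not all of them rose.

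For tRNA maturation and export (27 genes), the median was 0.16, with 4 that rose and 0 that fell. The share that rose was 14.8%, against 9.04% of all tested genes. Intervals lay above 0 for 55.6% of the list, against 22.8% of all tested genes, and below 0 for 14.8%, against 31.5%. Intervals narrow with level, and the median of the mean CPM was 48.2 in this list and 20.9 in all tested genes. TSEN15, a subunit of the tRNA splicing endonuclease, had 15.3 and 25.9 CPM (log2 ratio 0.72, interval 0.57 to 0.95). XPOT, which exports tRNA from the nucleus, had 171 and 233 CPM. DDX1 and OSGEP also rose, with intervals that reached below 0.32. CLP1, an RNA kinase of the splicing complex, was the lowest of those with a mean of at least 10 CPM, with a log2 ratio of -0.24. Delivery of charged tRNA to the ribosome (4 genes) had 0 that rose or fell, from EEF1G with a log2 ratio of -0.30 to EEF1A1 with 0.10. Mitochondrial translation factors (11 genes) had a median of -0.01 and 0 that rose or fell, from GFM1 with -0.22 to TSFM with 0.29. Among all tested genes 9.04% rose and 18.4% fell. Other aminoacylation genes (12 rows) had a median of -0.02 with 1 that rose and 0 that fell, counts to be read against the same shares. The gene that rose was DTD2, a deacylase that clears mischarged tRNA, with 12.7 and 19.1 CPM. GATC, a subunit of the mitochondrial amidotransferase, had 2 listed rows that were far apart in level. The row with 1415 and 1305 CPM had the lowest log2 ratio of these with a mean of at least 10 CPM (-0.12), and the row with 38.3 and 38.4 CPM had 0.00, so which of them gives the level of GATC is uncertain.

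**Figure D4:**
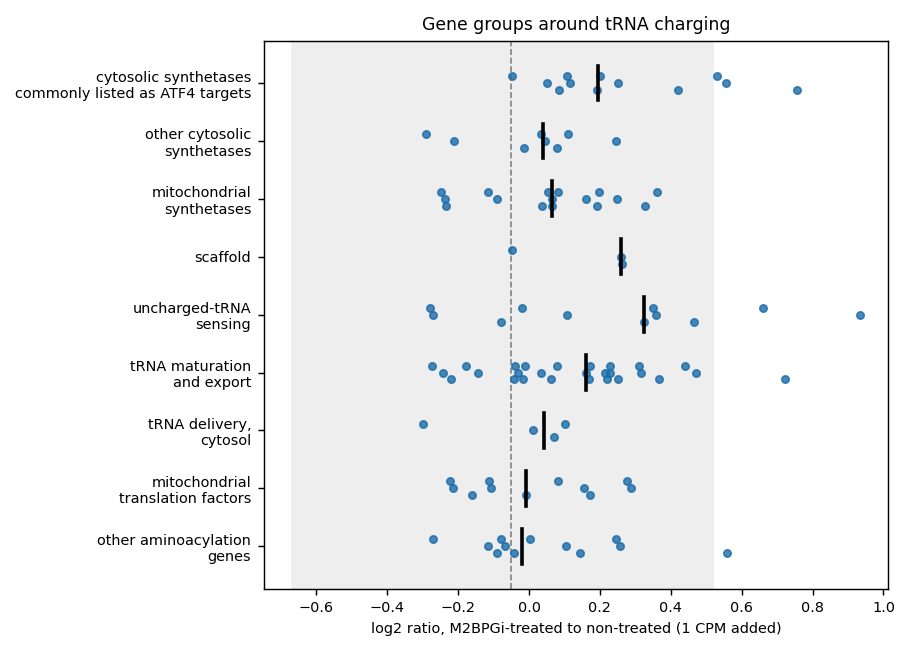
Log2 ratio with 1 CPM added for each gene (points) of the synthetase groups and of the related lists, with the group median as a black bar, for 1 library each. The grey band is the central 95% of all tested genes and the dashed line is their median of -0.05. The uncharged-tRNA sensing list, which includes ATF4 and targets of it, and the cytosolic genes listed as ATF4 targets reach furthest to the right.

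Markers of cell identity were read in the same libraries. All 10 hepatocyte markers had tags, with summed levels of 2457 CPM without and 1769 CPM with M2BPGi, and 5 fell, where 18.4% of all tested genes fell. FGB, for fibrinogen beta, was the most abundant with 950.0 and 623 CPM. HNF4A and APOA1 had log2 ratios above 0 (0.16 and 0.07). Of 6 macrophage markers, 3 were listed, with sums of 53.2 and 49.7 CPM led by LYZ, and PTPRC was at 0 in both libraries, where 0 tags allow 0.125 and 0.121 CPM. Among 6 stromal markers, 2 were listed, with sums of 5.20 and 4.18 CPM led by COL3A1, and 0 of 5 endothelial markers were listed. The part of the lower hepatocyte markers in the synthetase values was not tested.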

How the data were processed

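CAGE libraries of PLC/PRF/5 cells, 1 per condition, were processed by the authors, who left out ribosomal reads and reads with unreadable bases before mapping and deposited values per gene as CPM with 2 decimals. The submitters' processing notes name BWA, HISAT2 and hg19, while the study's methods name a mouse genome, and the gene names and identifiers are those of human genes. The assignment of tags to genes is not given in the sources used here. The members and lists were chosen with earlier results of these data known.

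From the CPM, the log2 ratio of each gene was taken after addition of 1 CPM. Tag numbers for the counting intervals were read back from the steps of the CPM, of which 100% were whole tags within the rounding of 0.005 CPM, and this was tested on simulated data. Values in both libraries are given for genes with a log2 ratio at least 0.32 from 0, the 4 highest and 4 lowest ratios and the most and least abundant gene of each compartment, and the scaffold genes. From each related list, the highest and lowest ratio among genes with a mean of at least 10 CPM and those past 1.5-fold are named. Other names, the counts of intervals above or below 0 (also in genes of like CPM), the motifs and the neighbouring genes were chosen after the values were seen. Near-identical matches (at least 95% over at least 100 nt of the first 500 nt of a transcript) were searched in GENCODE v29 with BLAST+ 2.17.0. That annotation and the RefSeq windows are on GRCh38, not on hg19, and served for names, lengths, neighbours and sequences. Alternatives were other pseudocounts (0.1 and 5 CPM), other filters, rescaled libraries, bins of transcript length, a fold of 1.5 and the cytosolic set without GARS and KARS. Counts without EEF1E1, VARS2, EARS2 and LARS2 were added after the data were seen and could not differ, since none of these genes had risen or fallen. Python 3.11.15, scipy 1.17.1, numpy 2.4.6 and pandas 2.3.3 were used.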

Additional observations from a re-analysis of the deposited data

How the results depend on the processing

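No paired analysis was possible because a condition was 1 library, and for the same reason no library could be left out. At a fold of 1.5, the cytosolic genes counted as higher were 1 in place of 4, and the mitochondrial genes 0 in place of 2. Mitochondrial genes counted as higher were also 0 with a pseudocount of 5 CPM, which weighs most on low genes, and 1 with a mean of at least 10 CPM as the filter, which removes FARS2 and keeps YARS2. Counts of lower genes were 0 in each compartment under every alternative run. Medians of the cytosolic, mitochondrial and scaffold genes stayed above 0 under the alternatives run for them, with cytosolic values from 0.10 to 0.18, mitochondrial values from 0.06 to 0.12 (0.05 with the filter at 10 CPM) and scaffold values from 0.18 to 0.31. Rescaling the libraries turned the sign of 3 of the 39 genes, DARS, LARS and AIMP1, none of which had reached 0.32 from 0. TMM factors and the exact binomial test of tags were planned and not run, since too few low values gave whole tags within a tolerance stricter than the rounding. The counting intervals rest on the same tag numbers, taken within the rounding, so this limit holds for them too. The median width of the counting interval was 0.39 for the mitochondrial and 0.15 for the cytosolic genes. An interval that holds 0 can come from few tags or from a small difference.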
